A study of Mus musculus with 25 samples.

Results

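The response of mouse retina to the ATF6 activator AA147 was set against its response to the ATF6 inhibitor Ceapin-A7, each response being taken over the vehicle libraries that belong to the same pair of expression tables. The comparison used 20 of the 25 RNA-seq libraries of the study, 5 in each of 4 groups, chosen by group and not by any measured value. The first group was retina of wild-type C57BL/6J mice injected into the vitreous of both eyes with 1 µL of 10 µM AA147 at postnatal day 30, and its control was vehicle set 1. The second was retina given the same volume and dose of Ceapin-A7, and its control was vehicle set 2. The vehicle libraries carry the treatment label PBS, while the protocol gives saline with 0.05 to 0.1% dimethyl sulfoxide. AA147 and Ceapin-A7 columns carry a time of 24 h, and vehicle columns carry none, so a difference in collection time between compound and vehicle cannot be told apart from the compound. Cornea and lens had been taken off before RNA was extracted. Nothing in the labels says that the 5 libraries of a group are from separate animals, so every p-value below rests on the spread between libraries, which may not be that between animals. Within AA147, Ceapin-A7 and vehicle set 2, Y-linked Ddx3y was listed at 0 in some libraries and at 10.93 to 17.52 FPKM in others. The libraries of those groups are therefore not all from the same animal.

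ATF6 is a membrane protein of the endoplasmic reticulum (ER) that senses unfolded protein. Under ER stress it travels to the Golgi, where site-1 and site-2 proteases (Mbtps1 and Mbtps2) release its cytosolic part, a transcription factor that enters the nucleus and raises ER chaperones and components of ER-associated degradation. AA147 is described as a compound that turns on ATF6 signalling, and Ceapin-A7 as one that keeps ATF6 in the ER. In the retina, photoreceptors make large amounts of membrane protein through the ER, and loss of ATF6 function causes cone disease in humans.

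ATF6 acts with the factor NF-Y at the ER stress response element, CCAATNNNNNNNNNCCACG, in the promoters of its targets. The element was searched on both strands from 250 bases before to 50 bases after the start of each gene, in RefSeq promoter sequences of GRCm38.p6, an earlier build than the GRCm39 named for the expression values. It lay in 39 of 32851 promoters, or 0.119%. Of the 20 genes of the ATF6 target list, 17 had a promoter sequence and 9 of these held the element: Hspa5, Hsp90b1, Pdia6, Calr, Canx, Creld2, Dnajc3, Derl3 and Syvn1. The windows of the 4 targets whose levels are given library by library below are printed 5′ to 3′ along the gene, with 20 bases on each side of the element and the conserved ends of the element in capitals. They lie at chr2:34772005-34772063, plus strand (Hspa5), chr10:86705618-86705676, minus strand (upstream Hsp90b1 element), chr10:86705513-86705571, minus strand (downstream Hsp90b1 element), chr8:84847055-84847113, minus strand (Calr) and chr15:88819500-88819558, plus strand (Creld2). In Calr, Creld2 and the downstream Hsp90b1 element the match runs on the opposite strand, so the capitals read CGTGG and ATTGG.
Hspa5: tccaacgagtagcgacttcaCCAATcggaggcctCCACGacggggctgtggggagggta
Hsp90b1 upstream element: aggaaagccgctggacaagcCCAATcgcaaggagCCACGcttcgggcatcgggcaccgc
Hsp90b1 downstream element: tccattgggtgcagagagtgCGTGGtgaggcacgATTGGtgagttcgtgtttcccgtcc
Calr: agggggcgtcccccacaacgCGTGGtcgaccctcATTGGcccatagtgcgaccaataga
Creld2: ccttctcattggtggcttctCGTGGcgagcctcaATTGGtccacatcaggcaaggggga

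Expression was given as FPKM, the number of sequenced fragments per kilobase of a gene's transcript after scaling for library size. Of 18440 genes listed in the tables of all 4 groups, 13014 reached 1 FPKM in at least 5 of the 20 libraries and were tested on the scale log2(FPKM + 1), which understates changes of low genes. All differences below are on that scale. A gene was called at an adjusted p under 0.05 in limma. The files hold no counts. A rough estimate of depth, read off the spacing of small FPKM values, was 15.4 to 24.9 M fragments, and 12582 to 12870 genes reached 1 FPKM in a library. All 20 rod, 16 bipolar cell and 18 Muller glia markers passed the filter, while 0 genes of the cornea list passed it. Of these, Aldh3a1, a corneal crystallin, stood at 12.9 FPKM in library 1 of vehicle set 2 and at 0.06 to 1.05 FPKM in the other 19 libraries. Lens RNA varied between libraries: Cryaa ranged over 3.78 to 357 FPKM in AA147 libraries, 31.9 to 508 in vehicle set 1, 28.7 to 3973 in Ceapin-A7 and 2.92 to 2422 in vehicle set 2. Y-linked Ddx3y was under 1 FPKM in 2 libraries of AA147, 0 of vehicle set 1, 2 of Ceapin-A7 and 4 of vehicle set 2. Libraries 4 and 5 of vehicle set 2 stood apart in stress and photoreceptor genes, and results that rest on them are given with and without them.

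AA147 and Ceapin-A7 retinas differed in many genes, and the vehicle sets differed in nearly as many, for the most part the same genes in the same direction. Between AA147 and Ceapin-A7, limma called 7120 of 13014 genes (54.7%), 3275 higher (25.2%) and 3845 lower (29.5%) with AA147. Between vehicle set 1 and vehicle set 2, which received the same treatment by their labels, it called 6584 (50.6%), 2902 higher (22.3%) and 3682 lower (28.3%). Both comparisons called 5440 genes in the same direction, which is 76.4% of the compound calls and 82.6% of the vehicle calls, and 4 genes in opposite directions. The compound difference and the vehicle difference share no library, and across genes they had a Pearson r of 0.81 and a Spearman coefficient of 0.83. Genes are not independent replicates, and both differences also set one pair of tables against the other.

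**Figure D1:**
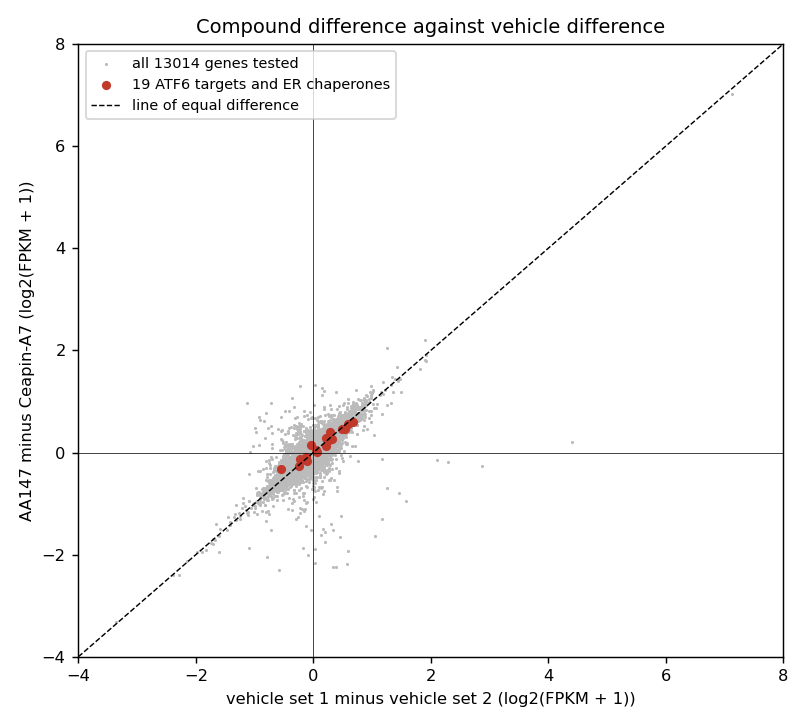
AA147 minus Ceapin-A7 (vertical axis) against vehicle set 1 minus vehicle set 2 (horizontal axis), both as differences in mean log2(FPKM + 1), for 13014 genes, with the 19 tested ATF6 targets and ER chaperones in red. Most genes lie along the dashed line of equal difference, and the ATF6 targets lie along it too.

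The vehicle-adjusted difference, AA147 minus vehicle set 1 less Ceapin-A7 minus vehicle set 2, called 0 of 13014 genes (0%) in limma, with a smallest adjusted p of 0.566. At an unadjusted p under 0.05, 1110 genes (8.53%) passed. Its median size was 0.073, against 0.18 for AA147 minus Ceapin-A7 and 0.16 between the vehicle sets. The arms themselves called 0 genes each in limma, with 345 genes at an unadjusted p under 0.05 for AA147 over vehicle set 1 and 2006 for Ceapin-A7 over vehicle set 2. The Ceapin-A7 arm depended on single libraries of vehicle set 2. It called 245 genes without library 2 (2905 at an unadjusted p under 0.05) and 6 without library 3 (2594). Without library 4 it called 0, with 1166 at an unadjusted p under 0.05. With all libraries no gene was therefore called in both arms with opposite signs. The 95% confidence interval of the vehicle-adjusted difference lay within 1 either way for 12663 genes (97.3%) and within 0.5 for 11550 (88.8%).

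Among the genes that separated AA147 from Ceapin-A7 most, some showed the same gap between the vehicles and others did not. These genes were chosen after their values were seen. The predicted gene LOC118568718 measured 1004, 1016, 1182, 1223 and 982 FPKM in AA147 libraries and 7.82, 6.2, 7.63, 7.59 and 7.16 FPKM in Ceapin-A7 libraries. It measured 1087, 1762, 1060.0, 947 and 956 FPKM in vehicle set 1 and 6.31, 7.79, 6.09, 7.04 and 8.66 FPKM in vehicle set 2. The first table pair stood far above the second whether compound or vehicle was given, and the vehicle-adjusted difference was -0.092 ± 0.19 (SE). Zbed6, a transcription factor gene within an intron of Zc3h11a whose reads the authors' counting could split, ran the other way. It measured 0.44, 0.26, 0.44, 0.43 and 0.27 FPKM in AA147 libraries and 12.4, 12.6, 13.9, 11.4 and 13.0 FPKM in Ceapin-A7 libraries. Vehicle set 1 held 0.42, 0.38, 0.52, 0.25 and 0.33 FPKM and vehicle set 2 held 13.0, 14.04, 12.8, 13.6 and 12.2 FPKM, again without overlap between the table pairs. Glra1, a glycine receptor subunit, averaged 0.562 ± 0.112 FPKM with AA147 and 0.518 ± 0.130 in vehicle set 1, and 7.25 ± 0.647 with Ceapin-A7 and 6.97 ± 0.262 in vehicle set 2 (SD, n = 5 each). Epas1, the hypoxia-inducible factor 2 alpha gene, averaged 43.1 ± 2.05 FPKM with AA147 and 43.8 ± 2.75 in vehicle set 1, and 12.9 ± 0.660 with Ceapin-A7 and 15.9 ± 3.39 in vehicle set 2. In all, 131 genes differed by more than 1 between AA147 and Ceapin-A7. Of these, 60 differed by more than 1 in the same direction between the vehicle sets, and 88 had a vehicle-adjusted difference under 0.5. Lens and pigment cell genes were among those without such a gap. The lens crystallin Cryaa differed by -2.25 between the compounds (limma adjusted p = 0.309) and by 0.34 between the vehicles. Mlana, a melanosome protein, differed by -2.15 between the compounds (limma adjusted p = 0.0589) and by 0.02 between the vehicles.

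Calr, Hsp90b1 and Creld2, chaperones and partners that ATF6 is known to raise, were called higher in AA147 than in Ceapin-A7 retinas, and they were called higher in vehicle set 1 than in vehicle set 2 as well. Once each compound was set against its own vehicle, 0 ATF6 targets were called. Hspa5 encodes BiP, the main Hsp70 chaperone of the ER. Hspa5 measured 147, 163, 131, 114 and 145 FPKM in AA147 retinas and 187, 182, 136, 141 and 135 FPKM in vehicle set 1. Ceapin-A7 retinas held 106, 113, 132, 109.9 and 117 FPKM, against 110.2, 109.9, 106, 138 and 162 FPKM in vehicle set 2. Values of AA147 and vehicle set 1 overlapped, and so did those of Ceapin-A7 and vehicle set 2, in which libraries 4 and 5 were highest. AA147 averaged 139.8 ± 18.4 FPKM and vehicle set 1 156 ± 26.04, while Ceapin-A7 averaged 115 ± 9.97 and vehicle set 2 125 ± 24.1 (SD, n = 5 each). The difference was 0.27 between the compounds and 0.32 between the vehicles, and the vehicle-adjusted difference was -0.052 ± 0.17 (SE, 95% interval -0.41 to 0.31, limma adjusted p = 0.947). It was -0.23 without libraries 4 and 5 of vehicle set 2.

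Calr encodes calreticulin, a lectin chaperone and calcium store of the ER lumen. AA147 retinas held 346, 359, 308, 248 and 310.3 FPKM of Calr, against 373, 404, 312, 329 and 309.5 FPKM in vehicle set 1. With Ceapin-A7 it measured 200.1, 201, 224, 209.5 and 196 FPKM, and in vehicle set 2 211, 204, 200.03, 215 and 246 FPKM. The highest library of the second pair lay below the lowest of the first, whether compound or vehicle was given. Calr differed by 0.60 between the compounds (limma adjusted p = 1.21e-05) and by 0.68 between the vehicles (adjusted p = 3e-06), and its vehicle-adjusted difference was -0.080 ± 0.13 (adjusted p = 0.862).

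Hsp90b1 encodes GRP94, the Hsp90 chaperone of the ER. Its levels were 226, 237, 199, 175 and 207 FPKM with AA147 and 247, 263, 216, 225 and 202 FPKM in vehicle set 1. In the other pair Hsp90b1 was at 147, 154, 152, 149.9 and 149 FPKM with Ceapin-A7 and at 149.8, 166, 155, 150.1 and 172 FPKM in vehicle set 2. The lowest AA147 library, library 4, stood above the highest library of the second pair, and AA147 and vehicle set 1 overlapped. The compounds differed by 0.46 and the vehicles by 0.53, and the vehicle-adjusted difference was -0.070 ± 0.10 (limma adjusted p = 0.85).

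Creld2 encodes a secreted, ER-resident protein that is induced under ER stress. In libraries 1 to 5, Creld2 stood at 21.7, 24.3, 20.7, 18.5 and 22.6 FPKM with AA147 and at 27.1, 24.3, 21.3, 23.8 and 20.5 FPKM in vehicle set 1. The levels were 13.2, 16.3, 15.2, 14.3 and 12.7 FPKM with Ceapin-A7 and 13.9, 15.8, 14.5, 15.4 and 16.2 FPKM in vehicle set 2. AA147 and vehicle set 1 overlapped, Ceapin-A7 and vehicle set 2 overlapped, and the table pairs did not. The compounds differed by 0.55 and the vehicles by 0.59, and the vehicle-adjusted difference was -0.034 ± 0.11 (limma adjusted p = 0.947). Manf, a neurotrophic factor held in the ER, ran the other way. It averaged 64.6 ± 7.39 FPKM with AA147 and 68.8 ± 13.5 in vehicle set 1, and 78.2 ± 6.46 with Ceapin-A7 and 80.5 ± 9.03 in vehicle set 2. Its vehicle-adjusted difference was -0.034 ± 0.16.

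**Figure D2:**
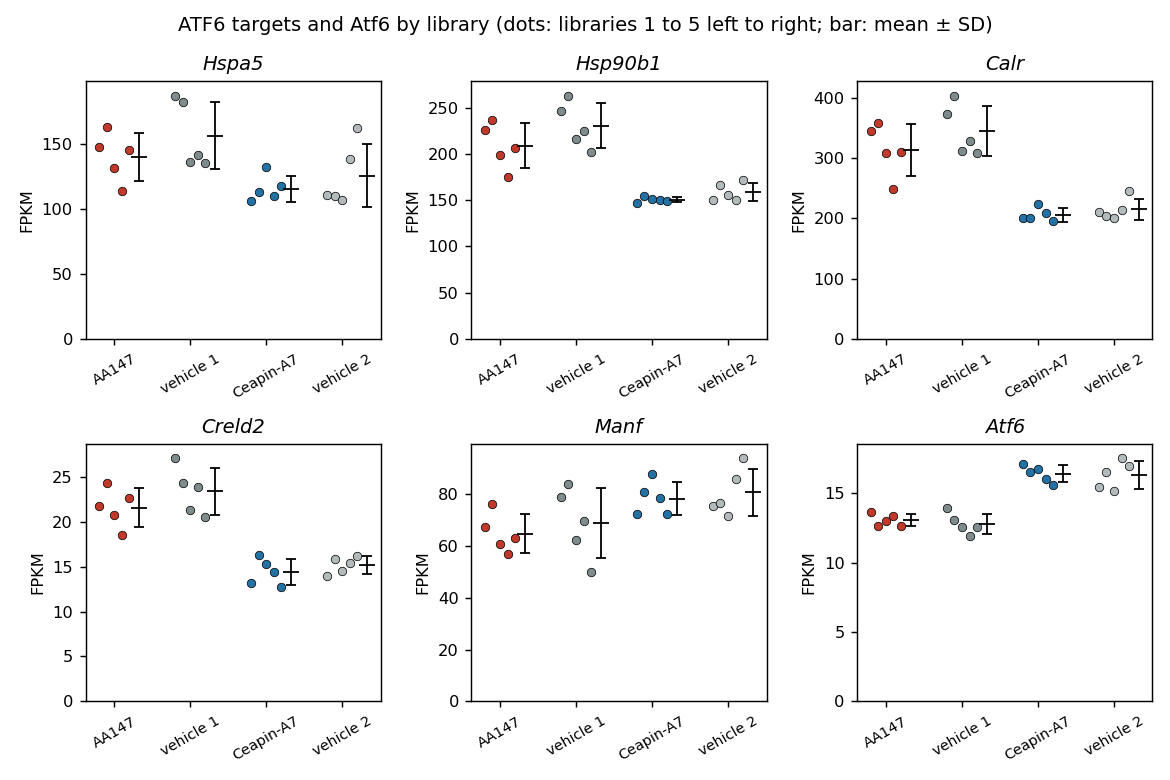
FPKM of 5 ATF6 targets and of Atf6 in each library, with the 5 libraries of a group as dots and the mean ± SD beside them (vehicle 1 and vehicle 2 are the vehicle sets). For Calr, Hsp90b1, Creld2 and Atf6 the gap lies between the table pairs, and each compound overlaps its own vehicle.

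The list of ATF6 targets and ER chaperones held 20 genes, of which 19 passed the filter. Derl3, a component of ER-associated degradation, did not, with 0.44 to 1.48 FPKM over the 20 libraries. Between the compounds, 8 of the 19 were called higher and 5 lower with AA147 (25.2% and 29.5% of all genes were), and between the vehicles 9 were called higher and 3 lower in set 1 (22.3% and 28.3% of all genes were). The compound and vehicle differences had the same sign in 18 of 19 genes. In the vehicle-adjusted difference 0 were called and 1 had an unadjusted p under 0.05. The median was -0.013 (all genes 0.0095), 8 of 19 values lay above 0 (53.9% of all genes did), and the values ran from -0.085 to 0.23. The sign of this median was not stable: leaving out 1 library at a time moved it between -0.057 and 0.021, and the other settings tried between -0.047 and 0.059.

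By role, the folding enzymes and chaperones lay near 0. The disulfide isomerases Pdia3, Pdia4 and Pdia6 had vehicle-adjusted differences of -0.068, 0.0094 and -0.0025. Canx, the membrane-bound partner of calreticulin, had -0.013, and Hyou1, the large Hsp70 of the ER, had -0.032. Hyou1 averaged 33.4 ± 1.97 FPKM with AA147 and 36.1 ± 3.04 in vehicle set 1, and 24.0 ± 0.679 with Ceapin-A7 and 25.4 ± 2.90 in vehicle set 2. The BiP co-chaperones Dnajb11 and Dnajc3 had -0.085 and -0.054, Sdf2l1 had 0.060, and Hspa13, an Hsp70-like protein of the ER, had 0.063. None of these reached an unadjusted p of 0.05.

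Components of ER-associated degradation had positive values without a call. Herpud1, which organises the degradation complex, had a vehicle-adjusted difference of 0.19 ± 0.12 (limma adjusted p = 0.638), from 40.4, 44.2, 54.8, 48.4 and 46.1 FPKM with AA147 and 39.0, 44.5, 41.3, 43.0 and 45.1 FPKM in vehicle set 1. In the second pair Herpud1 measured 39.7, 41.4, 40.5, 43.1 and 45.2 FPKM with Ceapin-A7 and 39.8, 36.5, 43.6, 49.7 and 51.9 FPKM in vehicle set 2, and both pairs overlapped. Syvn1, the ubiquitin ligase of the complex, had 0.13, its adaptor Sel1l had 0.10 and the lectin Edem1 had 0.035. With libraries 4 and 5 of vehicle set 2 left out, Herpud1 stood at 0.056, Syvn1 at 0.045, Sel1l at 0.045 and Edem1 at -0.037.

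Crebrf, a regulator known to promote breakdown of the ER-bound factor CREB3, was the listed gene whose interval excluded 0. Crebrf measured 9.23, 8.28, 8.38, 9.49 and 8.75 FPKM in AA147 retinas and 8.28, 7.15, 8.02, 8.71 and 8.32 FPKM in vehicle set 1. Ceapin-A7 retinas held 12.1, 10.7, 11.5, 10.5 and 11.5 FPKM, against 11.8, 11.5, 11.7, 14.5 and 12.6 FPKM in vehicle set 2. Every AA147 library lay at or above the median of vehicle set 1, the groups of each pair overlapped, and library 4 of vehicle set 2 was highest. The vehicle-adjusted difference was 0.23 ± 0.085 with an unadjusted p of 0.0123 and a limma adjusted p of 0.568, so it was not called. It was 0.16 without libraries 4 and 5 of vehicle set 2.

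**Figure D3:**
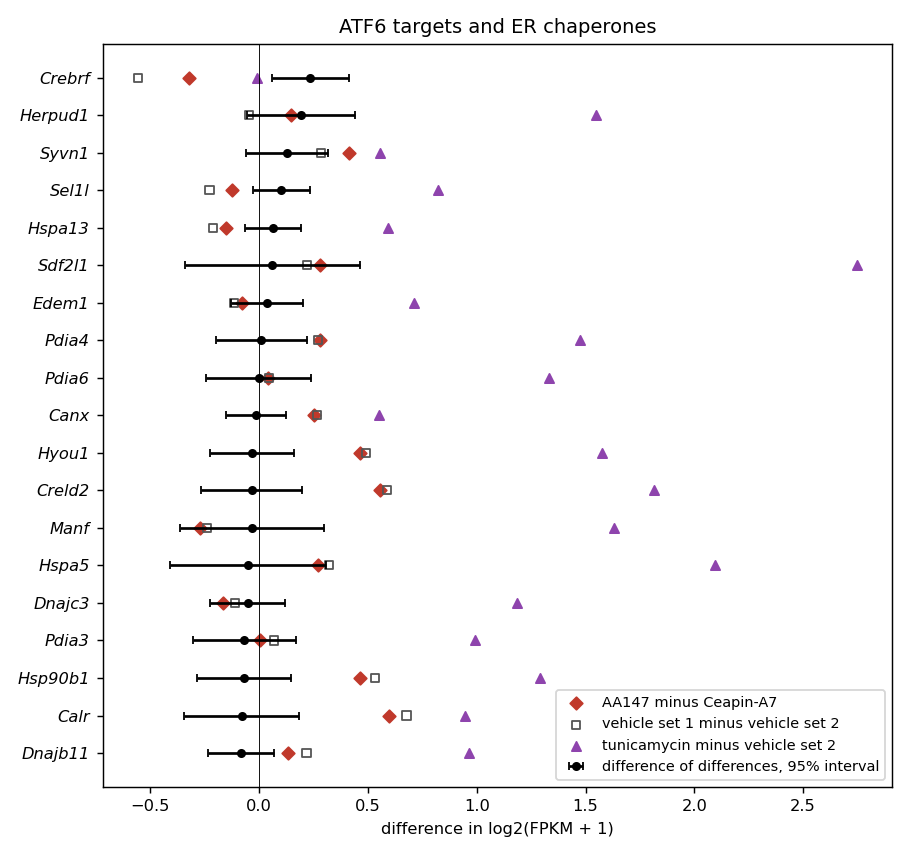
Differences in mean log2(FPKM + 1) for the 19 tested ATF6 targets and ER chaperones, with the vehicle-adjusted difference and its 95% interval in black, AA147 minus Ceapin-A7 as red diamonds, vehicle set 1 minus vehicle set 2 as open squares and tunicamycin minus vehicle set 2 as purple triangles. The intervals of 18 genes include 0, the diamonds follow the squares, and the triangles of most genes lie to the right.

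The intervals bound what each arm could hold. The upper bounds of the AA147 arm reached at most 0.30 (Herpud1), 14 of the 19 values in that arm lay below 0, and the values ran from -0.15 to 0.13. The Ceapin-A7 arm was below 0 in 19 of 19 genes, from -0.13 to -0.0058. Its lowest lower bound was -0.36 and its highest upper bound 0.21. Of all 13014 genes, 7430 lay above 0 in the AA147 arm and 6481 in the Ceapin-A7 arm. With libraries 4 and 5 of vehicle set 2 left out, the median of the listed genes in the Ceapin-A7 arm was -0.023, against -0.075 with them. Their values then ran from -0.093 (Pdia6) to 0.080 (Hspa5). Tunicamycin, which blocks N-glycosylation, was the study's positive control at the same dose. It raised 18 of the 19 over vehicle set 2 in limma (5.84% of all genes), with a median of 1.18. The listed gene it did not raise was Crebrf, at -0.011 (limma adjusted p = 0.934). The upper bound of the AA147 arm lay below the tunicamycin value in 18 of 19 genes, and these comparisons share no library. For the vehicle-adjusted difference, the highest upper bound was 0.46 (Sdf2l1) and the lowest lower bound -0.41 (Hspa5).

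Atf6 itself and the other ER stress sensors gave no call. AA147 retinas held 13.6, 12.6, 13.0, 13.4 and 12.7 FPKM of Atf6, against 13.9, 13.0, 12.6, 11.9 and 12.5 FPKM in vehicle set 1. With Ceapin-A7 it measured 17.1, 16.5, 16.7, 16.03 and 15.6 FPKM, and in vehicle set 2 15.4, 16.5, 15.2, 17.5 and 16.9 FPKM. Atf6 was lower in the first table pair than in the second without overlap, and within a pair compound and vehicle overlapped. The difference was -0.31 between the compounds (limma adjusted p = 6.05e-06) and -0.33 between the vehicles (adjusted p = 3.31e-06), and the vehicle-adjusted difference was 0.019 ± 0.061 (adjusted p = 0.947). Its homologue Atf6b had 0.076. The proteases Mbtps1 and Mbtps2 had -0.064 and -0.015. Ern1, which encodes IRE1, had 0.11, Eif2ak3, which encodes PERK, had 0.026, and Xbp1, the IRE1 substrate, had 0.091. The ATF6 relatives Creb3, Creb3l1 and Creb3l2 had -0.030, 0.26 and 0.17. With libraries 4 and 5 of vehicle set 2 left out, Creb3l1 stood at -0.052, Creb3l2 at 0.13, Ern1 at 0.070 and Xbp1 at -0.11. Of the 10 genes, 0 reached an unadjusted p under 0.05 in the vehicle-adjusted difference. Between the compounds 4 of the 10 were called lower with AA147 (29.5% of all genes were), and between the vehicles 4 were called lower in set 1 (28.3% of all genes were). AA147 is described by its effect on ATF6 signalling and Ceapin-A7 by its hold on the ATF6 protein. Cleavage of that protein was not measured here.

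Genes whose promoter holds the ER stress response element gave a grouping by sequence. Of the 10371 tested genes with a promoter sequence, 18 held the element. Their median was 0.26 between the compounds and 0.27 between the vehicles, against -0.021 and -0.027 over all 10371 genes. Their median vehicle-adjusted difference was -0.012 (0.0090 over all 10371), with 6 of 18 above 0 and 1 at an unadjusted p under 0.05. Tunicamycin minus vehicle set 2 had a median of 0.65 over the 18, with 11 called higher (5.84% of all genes were). The 18 include Hspa5, Hsp90b1, Pdia6, Calr, Canx, Creld2, Dnajc3 and Syvn1 of the ATF6 list, so the 2 groupings are not separate. A match to these letters does not show that ATF6 binds there.

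The other branches of the unfolded protein response divided. IRE1-XBP1 targets, which serve protein translocation into the ER, had a median vehicle-adjusted difference of 0.019 over 20 tested genes, 11 of them above 0, and N-glycosylation genes had -0.0070 over 25 genes, 12 above 0. PERK-ATF4 targets, which serve amino acid supply and the control of translation, had 0.40 over 24 tested genes of 27 listed, and 24 of 24 lay above 0 (all genes: median 0.0095, 53.9% above 0). None was called in limma, and 7 had an unadjusted p under 0.05, beside 8.53% of all genes. The Ceapin-A7 arm carried most of this difference, with a median of -0.34, against 0.046 in the AA147 arm.

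These values rested on libraries 4 and 5 of vehicle set 2, whose part in the result is shown by leaving them out. Those libraries were singled out because they stood apart in stress and photoreceptor genes, so leaving them out is a description and not a separate test. The mean log2(FPKM + 1) of the PERK-ATF4 list was 3.72 to 3.87 in AA147 libraries, 3.62 to 3.78 in vehicle set 1 and 3.63 to 3.81 in Ceapin-A7 libraries. In vehicle set 2 it reached 4.66 in library 4 and 4.81 in library 5, with 3.69 to 3.91 in the other 3. Without those libraries the median of the list was 0.044, with 16 of 24 above 0. Chac1, a glutathione-degrading enzyme induced by ATF4, showed the split. Its levels were 3.07, 2.71, 3.96, 3.19 and 2.86 FPKM with AA147 and 2.95, 2.42, 3.47, 2.97 and 2.74 FPKM in vehicle set 1. In the other pair Chac1 was at 5.00, 3.95, 4.75, 4.69 and 4.2 FPKM with Ceapin-A7 and at 3.54, 3.57, 5.09, 19.7 and 13.9 FPKM in vehicle set 2. Libraries 4 and 5 of vehicle set 2 were far above all the others, and the vehicle-adjusted difference of Chac1 was 0.68 with them and -0.047 without them. Atf3, a stress-induced transcription factor, was chosen after its values were seen. In libraries 1 to 5, Atf3 stood at 8.28, 8.86, 6.92, 8.99 and 6.35 FPKM with AA147 and at 8.81, 3.37, 4.98, 5.95 and 6.24 FPKM in vehicle set 1. The levels were 3.33, 3.79, 5.41, 5.47 and 3.18 FPKM with Ceapin-A7 and 6.37, 6.4, 4.86, 28.6 and 20.7 FPKM in vehicle set 2. It had 1.58 ± 0.48 (limma adjusted p = 0.568) with libraries 4 and 5 and 0.82 without them, and Trib3, an inhibitor of ATF4 signalling, had 0.78 and 0.37.

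**Figure D4:**
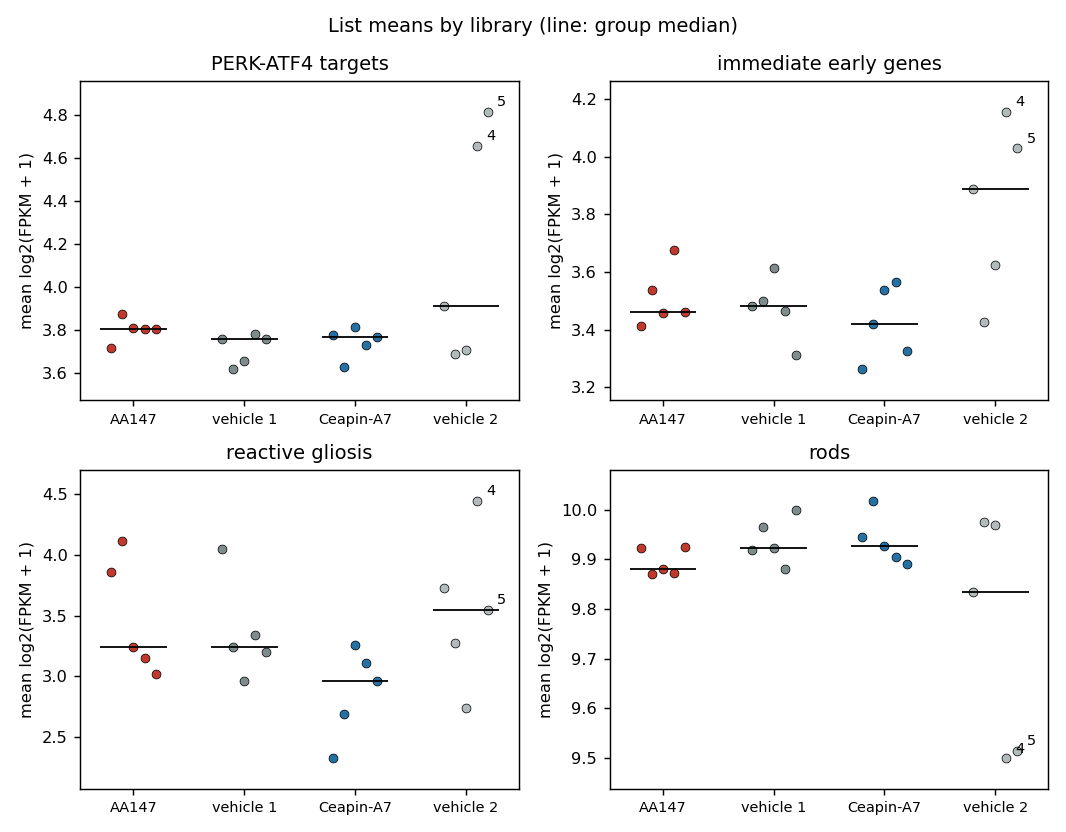
Mean log2(FPKM + 1) over the tested genes of 4 lists in each library, with the group median as a line; libraries 4 and 5 of vehicle set 2 (vehicle 2) are numbered. Those libraries are highest for PERK-ATF4 targets and immediate early genes and lowest for rods, while the gliosis list spreads within every group. Vertical axes do not start at 0.

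Genes of reactive gliosis, the response of Muller glia and astrocytes to injury, had the highest median of any tested list, 0.92 over 18 tested genes of 20 listed, with 16 above 0 (53.9% of all genes were) and 10 at an unadjusted p under 0.05. None was called in limma. The AA147 arm had a median of 0.20 with 0 genes at an unadjusted p under 0.05 (2.65% of all genes), and the Ceapin-A7 arm one of -0.75 with 10 (15.4% of all genes). In bulk tissue, fewer cells of a type and less RNA per cell cannot be told apart. Without libraries 4 and 5 of vehicle set 2 the median was 0.48, with 18 of 18 above 0 and 4 at an unadjusted p under 0.05 (3.67% of all genes were). The 5 genes of this list called higher in AA147 than in Ceapin-A7 retinas were Gfap, Edn2, Stat3, Nes and Osmr (25.2% of all genes were called higher), and 0 were called lower (29.5% of all genes were). None of the 18 was called higher between the vehicles (22.3% of all genes were), and 2 were called lower in set 1 (28.3% of all genes were).

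Gfap encodes the glial intermediate filament that marks reactive Muller cells. Gfap measured 62.6, 69.6, 30.8, 48.5 and 24.9 FPKM in AA147 retinas and 53.2, 34.0, 29.6, 31.6 and 27.6 FPKM in vehicle set 1. Ceapin-A7 retinas held 9.31, 15.4, 27.0, 25.3 and 17.6 FPKM, against 31.3, 29.8, 17.2, 40.7 and 41.7 FPKM in vehicle set 2. AA147 libraries 1 and 2 were the highest of the 20, library 1 of vehicle set 1 came next, and the groups of each pair overlapped. Gfap averaged 47.3 ± 19.4 FPKM with AA147 and 35.2 ± 10.3 in vehicle set 1, and 18.9 ± 7.29 with Ceapin-A7 and 32.1 ± 9.91 in vehicle set 2 (SD, n = 5 each). The compounds differed by 1.26 (limma adjusted p = 0.0015) and the vehicles by 0.15. The vehicle-adjusted difference was 1.11 ± 0.43 (unadjusted p = 0.0171, limma adjusted p = 0.568), and 0.84 without libraries 4 and 5 of vehicle set 2.

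Edn2 is an endothelin that injured photoreceptors release. AA147 retinas held 36.7, 39.2, 20.2, 14.5 and 15.1 FPKM of Edn2, against 32.3, 10.6, 16.3, 16.8 and 18.1 FPKM in vehicle set 1. With Ceapin-A7 it measured 3.71, 4.94, 14.7, 15.1 and 10.5 FPKM, and in vehicle set 2 19.9, 19.4, 10.8, 42.3 and 8.71 FPKM. Libraries 1 and 2 of AA147, library 1 of vehicle set 1 and library 4 of vehicle set 2 were high, libraries 1 and 2 of Ceapin-A7 were lowest, and the groups of each pair overlapped. Its vehicle-adjusted difference was 1.30 ± 0.59 (limma adjusted p = 0.574), and 1.198 without libraries 4 and 5 of vehicle set 2. Stat3, the transcription factor behind glial activation, had 0.87 with those libraries and 0.46 without them. Nestin (Nes), an intermediate filament, had 1.52 and 0.68, and the oncostatin M receptor Osmr had 0.97 and 0.50. Serpina3n, C4b and C3, which mark inflammatory astrocytes, had -0.11, -0.015 and 0.15 with all libraries.

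Immediate early genes, transcription factors that neurons and glia switch on within minutes of a stimulus, had a median of 0.50 over 12 tested genes of 15 listed, with 11 above 0 (53.9% of all genes were), 7 at an unadjusted p under 0.05 (8.53%) and 0 called. Without libraries 4 and 5 of vehicle set 2 the median was 0.29, with 11 of 12 above 0 and 2 at an unadjusted p under 0.05 (3.67% of all genes were). Junb, a subunit of the AP-1 factor, had 1.10 with those libraries and 0.51 without them. Fosb, another subunit, had 0.77 and 0.53. Nr4a1 and Dusp1 had 0.0076 and -0.050 with all libraries.

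Photoreceptor genes lay below 0 by a small amount. Of 20 rod genes, 0 had a vehicle-adjusted difference above 0 (53.9% of all genes did), with a median of -0.20, 6 at an unadjusted p under 0.05 (8.53% of all genes) and 0 called. Without libraries 4 and 5 of vehicle set 2 the list had a median of -0.040, with 6 of 20 above 0 and 0 at an unadjusted p under 0.05. Cone genes had a median of -0.20 over 13 genes, and -0.11 without those libraries, with 2 of 13 above 0 either way. Of these 13, 5 had an unadjusted p under 0.05 with all libraries (8.53% of all genes) and 3 without libraries 4 and 5 of vehicle set 2 (3.67%). Opn1sw, the short-wave cone pigment, had -0.31 with them and -0.11 without them.

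Muller glia markers had a median of -0.097 over 18 genes and 0.0061 without libraries 4 and 5 of vehicle set 2. With all libraries 8 of 18 lay above 0 (53.9% of all genes did), and the values ran from -1.08 to 0.99. Of the 18, 6 had an unadjusted p under 0.05 (8.53% of all genes) and 0 were called. Without those 2 libraries 9 of 18 lay above 0, and 2 had an unadjusted p under 0.05 (3.67% of all genes). Glul, the glutamine synthetase that Muller cells use to clear glutamate, had the lowest value of that list. In libraries 1 to 5, Glul stood at 482, 459.9, 874, 519.6 and 631 FPKM with AA147 and at 484, 709, 952, 666 and 669.8 FPKM in vehicle set 1. The levels were 905, 945, 912, 848 and 1014 FPKM with Ceapin-A7 and 666, 624, 1024, 254 and 330.2 FPKM in vehicle set 2. Ceapin-A7 libraries were the most even, and libraries 4 and 5 of vehicle set 2 were the lowest of all. The vehicle-adjusted difference of Glul was -1.08 ± 0.39 (unadjusted p = 0.0121, limma adjusted p = 0.568), and -0.53 without those libraries. Medians of inner retinal lists were small: -0.053 for 16 bipolar genes, 0.036 for 15 amacrine genes, -0.097 for 6 horizontal cell genes and 0.037 for 18 ganglion cell genes. Microglia had -0.039 over 16 genes and endothelium 0.041 over 16. The neutrophil list had 0 genes past the filter.

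Lists tied to tissue carried along and to Y-linked genes had the most negative medians, at -1.92 for 19 lens genes and -2.80 for 4 Y-linked genes. They were -1.41 and -3.52 without libraries 4 and 5 of vehicle set 2. Pigment epithelium had -0.17 over 12 genes and fibroblasts and matrix -0.21 over 10. None of these genes was called in the vehicle-adjusted difference. Cryaa spread widely within every group. Ddx3y stood at 10.9 to 13.0 FPKM in all 5 libraries of vehicle set 1 and was listed at 0 in 4 of the 5 libraries of vehicle set 2. All 4 Y-linked genes were called higher in vehicle set 1 than in vehicle set 2, beside 22.3% of all genes. Crystallin genes of the gamma family are near-identical, so the authors' counting could split their reads. With the lens level as a covariate limma called 0 genes (1076 at an unadjusted p under 0.05), and with the Y-linked level 0 (1335).

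The remaining lists had medians between -0.17 and 0.19, against 0.0095 for all genes. NRF2 targets, which answer oxidative stress, had -0.025 over 24 genes. Cytosolic heat shock genes had 0.077 over 15, and -0.069 without libraries 4 and 5 of vehicle set 2. Interferon and antigen presentation genes had 0.19 over 20, and 0.0084 without them. Apoptosis and p53 genes had 0.14 over 12, and -0.0025 without them. Sterol synthesis genes had 0.032 over 21 and aminoacyl-tRNA synthetases 0.082 over 17, and without libraries 4 and 5 of vehicle set 2 they had 0.048 and -0.0035. Ribosomal proteins of the cytosol had -0.0096 over 29, hypoxia and glycolysis genes 0.041 over 22 and circadian clock genes 0.064 over 18. Pericyte and smooth muscle genes had -0.070 over 9 and erythrocyte genes -0.17 over 5. In each of these lists 0 genes were called.

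By size alone, 61 genes had a vehicle-adjusted difference past 1 either way, 25 higher and 36 lower, none of them called. The 36 lower genes included 16 lens genes, 4 Y-linked genes, 4 pigment epithelium genes and 2 fibroblast genes. The 25 higher ones included 8 gliosis genes, 2 PERK-ATF4 targets and 1 immediate early gene. Without libraries 4 and 5 of vehicle set 2, 5 of the 25 higher and 29 of the 36 lower genes were still past 1, and 23 of the 25 were smaller. The largest positive value belonged to Cxcl10, an interferon-induced chemokine, at 2.10 ± 0.64. Cxcl10 measured 1.74, 5.27, 2.36, 2.41 and 2.34 FPKM in AA147 retinas and 0.80, 0.34, 0.52, 0.70 and 0.52 FPKM in vehicle set 1. Ceapin-A7 retinas held 2.27, 0.36, 0.61, 0.45 and 1.21 FPKM, against 0.98, 0.85, 0.35, 7.83 and 9.82 FPKM in vehicle set 2. Every AA147 library stood above every library of vehicle set 1, by 1.22 on average, while in the second pair libraries 4 and 5 of vehicle set 2 stood far above the rest. Without those libraries the difference of Cxcl10 was 1.09.

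The smallest p-values belonged to moderate differences, given here as values because none was called. Bex1, a small X-linked protein of neurons, had the smallest. AA147 retinas held 60.6, 63.0, 60.3, 64.3 and 61.5 FPKM of Bex1, against 66.2, 75.2, 66.1, 74.2 and 65.0 FPKM in vehicle set 1. With Ceapin-A7 it measured 81.9, 82.4, 79.1, 87.0 and 79.2 FPKM, and in vehicle set 2 63.5, 68.0, 70.6, 64.5 and 79.6 FPKM. All AA147 libraries lay below vehicle set 1, and the Ceapin-A7 libraries lay above every library of vehicle set 2 except library 5, which overlapped them. Bex1 averaged 62.0 ± 1.66 FPKM with AA147 and 69.3 ± 4.94 in vehicle set 1, and 81.9 ± 3.205 with Ceapin-A7 and 69.2 ± 6.43 in vehicle set 2 (SD, n = 5 each). The vehicles differed by 0.0039, and the compounds differed by -0.40 (limma adjusted p = 4.19e-06). The vehicle-adjusted difference was -0.40 ± 0.077 (unadjusted p = 4.35e-05, limma adjusted p = 0.566), made of -0.16 in the AA147 arm and 0.24 in the Ceapin-A7 arm. Leaving out libraries 4 and 5 of vehicle set 2 gave -0.44, with an adjusted p of 0.0663.

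Apip, an enzyme of methionine salvage, was also lower. Its levels were 10.9, 11.8, 10.6, 9.81 and 10.7 FPKM with AA147 and 11.9, 11.2, 12.9, 12.2 and 12.9 FPKM in vehicle set 1. In the other pair Apip was at 12.3, 13.7, 11.2, 12.04 and 13.0 FPKM with Ceapin-A7 and at 10.2, 11.6, 10.4, 10.7 and 11.04 FPKM in vehicle set 2. The groups of each pair overlapped, and the vehicle-adjusted difference was -0.36 ± 0.076 (limma adjusted p = 0.568). Pym1, which recycles the exon junction complex, had -0.23, Snrnp35, a protein of the minor spliceosome, had -0.29, Tmem141 had -0.36 and the low-level gene Tcte2 had -0.52.

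On the higher side, Tyro3, a receptor kinase that binds the ligands marking cell debris for uptake, had arms of opposite sign, 0.16 for AA147 over vehicle set 1 and -0.18 for Ceapin-A7 over vehicle set 2. In libraries 1 to 5, Tyro3 stood at 10.4, 11.4, 9.96, 10.0 and 10.2 FPKM with AA147 and at 9.32, 8.85, 7.99, 9.69 and 10.0 FPKM in vehicle set 1. The levels were 8.98, 7.75, 8.21, 8.28 and 8.84 FPKM with Ceapin-A7 and 9.50, 10.7, 10.3, 8.95 and 8.88 FPKM in vehicle set 2. All AA147 libraries lay above 4 of the 5 libraries of vehicle set 1, and in the second pair most Ceapin-A7 libraries lay below vehicle set 2. The vehicle-adjusted difference was 0.34 ± 0.083 (limma adjusted p = 0.568), and 0.41 without libraries 4 and 5 of vehicle set 2. Tulp3, which carries receptors into cilia, measured 11.4, 11.3, 11.5, 11.6 and 11.6 FPKM with AA147 and 11, 9.67, 10.1, 10.2 and 10.4 FPKM in vehicle set 1. It measured 7.15, 6.63, 7.95, 7.72 and 8.02 FPKM with Ceapin-A7 and 8.62, 9.21, 7.80, 11.3 and 12.2 FPKM in vehicle set 2, whose libraries 4 and 5 were the highest. Tulp3 had 0.48 with those libraries and 0.31 without them. The phosphodiesterase Pde10a had 0.54, the histone gene H2bc11 0.91 from means of 1.88 FPKM with AA147, 0.828 in vehicle set 1, 0.514 with Ceapin-A7 and 0.812 in vehicle set 2, Amz2 0.16 and the unnamed transcript Gm19345 0.62. Histone genes are a near-identical family whose reads the counting could split. All 12 of these genes had limma adjusted p-values of 0.566 to 0.568. Like Tyro3, all 12 had arms of opposite sign, a pattern that choosing genes by a small p of this difference favours.

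**Figure D5:**
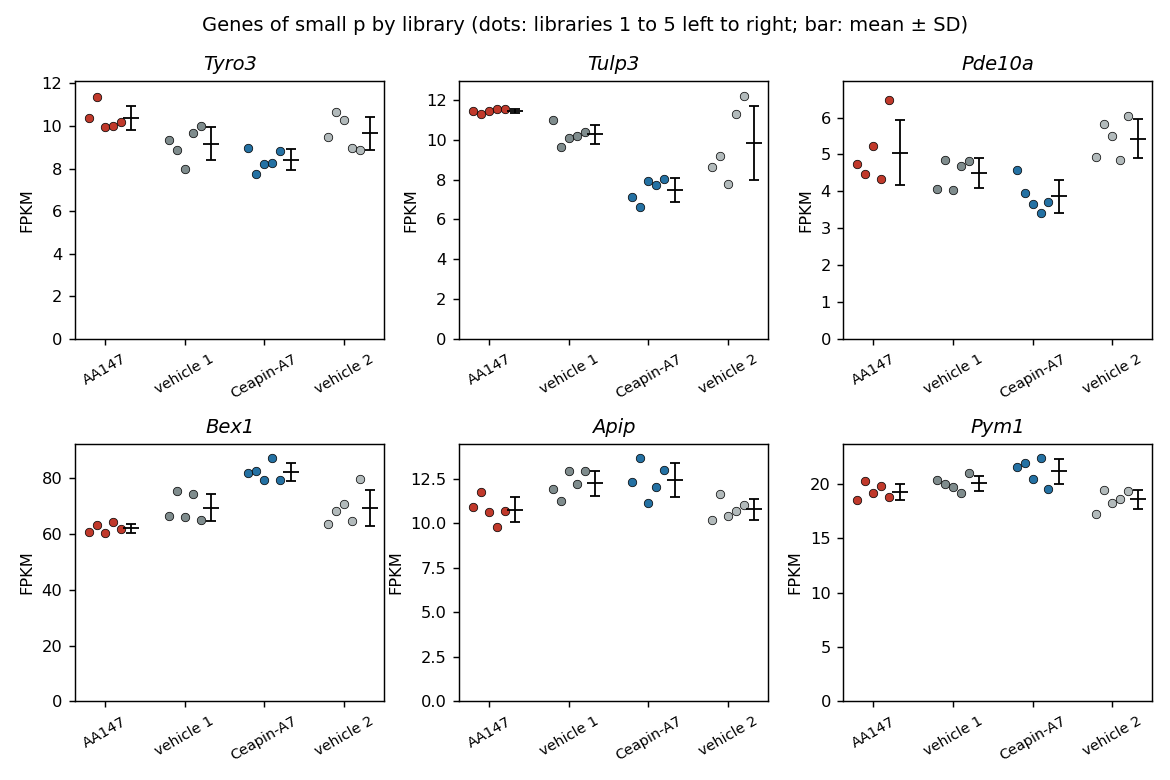
FPKM of 3 genes with positive (Tyro3, Tulp3, Pde10a) and 3 with negative (Bex1, Apip, Pym1) vehicle-adjusted differences, chosen among the 12 of smallest p, with the 5 libraries of a group as dots and the mean ± SD beside them (vehicle 1 and vehicle 2 are the vehicle sets). For Bex1 the AA147 libraries lie below their vehicle and most Ceapin-A7 libraries above theirs, and for Tulp3 libraries 4 and 5 of vehicle set 2 are the highest of that set.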

How the data were processed

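Retinal RNA of 25 libraries was sequenced as stranded mRNA libraries on DNBSEQ, per the labels' protocols. The authors deposited FPKM values, rounded to 2 decimals, and each group has a table of its own. GRCm39 is the build in the submitters' processing notes, which also list RSEM 1.2.18, HISAT2 2.0.4 and DESeq2 1.4.5 with no role or order, and strand settings are not given in the sources used here. AA147 and vehicle set 1 tables list the same 18676 genes, and Ceapin-A7, vehicle set 2 and tunicamycin tables the same 19102, which defines the table pairs. In all, 236 and 662 genes listed on 1 side only were left out.

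Genes at 1 FPKM or more in at least 5 of 20 libraries were fitted as log2(FPKM + 1) in 1 model of 4 group means with limma 3.58.1 (R 4.3.3), with an intensity trend, two-sided tests and Benjamini-Hochberg adjustment over 13014 genes at 0.05. 5 contrasts were taken, and the script was tested on simulated data. Each SE uses a spread pooled over the 4 groups. Tunicamycin minus vehicle set 2 came from a fit of all 5 groups. Depth was estimated on a grid of 10 to 40 M fragments, assuming that 250 bases of a transcript cannot start a fragment. Low values lay 0.170 to 0.194 from whole fragments on average, against 0.174 to 0.198 at the best other depth, so the estimate is rough and whole reads were not recovered. At the median of 23.5 M, 1 FPKM over 2 kb is about 41.2 fragments.

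Named genes were all tested ATF6 targets and sensors, the 6 genes of smallest p in each direction where none was called, and the highest expressed member of other lists; others were chosen after their values were seen. 1 gene that this rule names is not reported here. The comparison, its genes and its 33 lists were chosen with earlier results of these data known. Alternatives changed the pseudocount, filter, scaling, trend, library weights, covariates, groups fitted and libraries. Promoters, depth and figures used Python 3.11.15 with pandas 2.3.3, numpy 2.4.6 and matplotlib 3.10.9.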

Additional observations from a re-analysis of the deposited data

Results flagged for a closer look

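Of 164 groups of 5 libraries examined, 2 held a library whose gap to the others was large for the range of its group. Chance alone marks about 1 in 20 such groups. Eif2ak3, which encodes PERK, measured 14.45 FPKM in library 4 of vehicle set 2, against 12.23 to 12.84 FPKM in the other 4. Xbp1 measured 49.45 FPKM in library 3 of Ceapin-A7, against 42.22 to 44.2 FPKM in the other 4.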

How the results depend on the processing

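The vehicle-adjusted difference called 0 genes in limma under 13 other settings, with smallest adjusted p-values from 0.0663 (without libraries 4 and 5 of vehicle set 2) to 0.724 (all 5 groups fitted). Leaving out 1 library at a time gave 0 to 1 call, the 1 being Bex1 without library 5 of vehicle set 2 (adjusted p = 0.0168). For Ceapin-A7 over vehicle set 2 these fits gave 0 to 245 calls, with 245 without library 2 and 6 without library 3 of vehicle set 2. They gave 0 for AA147 over vehicle set 1, 6665 to 7339 for AA147 against Ceapin-A7 and 6166 to 6591 between the vehicles. With both vehicle sets used for both compounds, which leaves AA147 minus Ceapin-A7, 7120 genes were called. Values then changed sign and were called for Hsp90b1 (0.46), Calr (0.60), Canx (0.25), Creld2 (0.55), Hyou1 (0.46), Dnajb11 (0.13), Sel1l (-0.13), Hspa13 (-0.15), Crebrf (-0.32), Atf6 (-0.31) and Ern1 (-0.22), since the vehicle difference is no longer subtracted. Hspa5 (0.27), Pdia3 (0.0016), Pdia6 (0.041), Edem1 (-0.081), Xbp1 (-0.038), Creb3 (0.029) and Creb3l2 (-0.0014) changed sign too, without a call. For 41 named genes and the remaining settings, 1335 of 1347 values stayed uncalled and moved by less than the library spread, whether or not their sign changed. Of the others, 11 moved further, and Bex1 was called in the 1 fit above.

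Libraries of the same number did not deviate together: their correlations ran from -0.44 to 0.44, so the numbers were not taken to pair them. With the replicate block the vehicle-adjusted difference called 0 genes (1163 at an unadjusted p under 0.05).

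Library number and the FPKM scale limit precision: the median 95% interval of the vehicle-adjusted difference was 0.18 wide on each side, and counts behind low genes are unknown.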
